A study of Mus musculus with 2 samples.

Results

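The proteasome genes of mouse lung cells were examined in 2 single-cell RNA libraries. They were taken as every gene symbol made of Psm, 1 of the letters a to g and a number, other than Psmb8 and Psmb9, and they came to 48 of the 27998 genes in the count matrices. These 48 comprise 14 genes of the 20S core particle (Psma1 to Psma7 and Psmb1 to Psmb7), 17 genes of the 19S regulatory particle (Psmc1 to Psmc6 and 11 Psmd genes), and 7 assembly chaperones. The others are 2 activators, 1 inhibitor, the interferon-inducible genes Psmb10, Psme1 and Psme2, which are given apart, 2 core genes restricted to other tissues, a copy of Psme2, and Psmc3ip, a gene that only shares the name.

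The cells were sorted by flow cytometry from lungs of male mice as EpCAM-positive cells lacking CD31, CD34, CD45, CD24 and Sca-1, and are labelled alveolar type 2 (AT2) cells. The label of one library is WT, for wild type, and that of the other IPKO, for IP-/-, the loss of the prostaglandin I2 receptor encoded by Ptgir. No injury or treatment is stated for either. The question behind the pair is what the loss of this receptor does to AT2 cells.

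The proteasome is the barrel-shaped protease that degrades proteins tagged with ubiquitin. Its core is a stack of rings of alpha subunits, which gate the entry, and beta subunits, among which Psmb5, Psmb6 and Psmb7 cut peptide bonds, and the regulatory particle binds, unfolds and feeds in the substrate. Interferon brings in other beta subunits, of which Psmb10 replaces Psmb7, and the activator ring of Psme1 and Psme2, and the resulting immunoproteasome is known for making peptides for display on MHC class I molecules. AT2 cells make and recycle surfactant, and misfolded surfactant protein C is among the proteins they degrade by this route.

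Each library is the only one of its group, so no test between groups was possible and no p-value is given. All intervals are exact 95% intervals that cover counting error only, not the spread between mice. Unique molecular identifiers (UMIs) numbered 127287281 over 8924 barcodes labelled WT and 137471506 over 10014 barcodes labelled IPKO. Of these, 6745 and 8072 cells had at least 500 genes and at most 20% mitochondrial UMIs, with medians of 18057 and 16665 UMIs. The libraries shared 79 barcodes, 16 of them kept in both. Ptgir went against the labels: AT2 cells labelled WT held 0 UMIs of it, where 3 counts would be 0.0257 CPM, and AT2 cells labelled IPKO held 295 UMIs, or 2.36 CPM (counts per 1000000 UMIs of the class). A 3' tag outside the deleted part of a gene checks nothing, but absence in the WT library is the opposite of its label, so every direction below is given by label alone.

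AT2 cells were those with at least 10% of UMIs from Sftpc, the surfactant protein C gene, and numbered 6131 labelled WT and 7119 labelled IPKO. All 10 AT2 markers were detected in both, with sums of 271879 and 265064 CPM. The 5% of cells with the highest share of UMIs from Krt7, Krt8, Krt18 and Krt19 were set apart as keratin-high cells, 325 and 399 in number, because these keratins mark AT2 cells that leave their resting state as well as airway cells. Of these, 291 and 346 had Sftpc of at least 10%. The other 34 and 53 carried 186830 and 5576 CPM of club cell markers and 2204 and 6852 CPM of ciliated cell markers, so airway cells are among them, although CD24, known on airway cells, was gated out. The median cell of these had 0.108% and 0.163% of its UMIs from club markers, below the 0.384% and 0.280% of AT2 cells, so a minority of cells carried the club signal. Mesenchymal markers stood at 245 and 171 CPM there, against 1.51 and 2.97 CPM in AT2 cells. Keratin share is a range without a gap, and 140 and 191 cells lay within 10% of the limit of 0.0915% of UMIs. Endothelial cells (63 and 62) and immune cells (36 and 182) were those that came through the CD31 and CD45 gates, called from at least 3 of their markers at 0.2% of UMIs or more. They held 0.507% and 0.609% (endothelial) and 0.321% and 0.392% (immune) of their UMIs as Sftpc, against 21.2% and 21.0% in AT2 cells.

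The promoter windows of 3 beta subunit genes are shown. Psmb5, a catalytic gene, had the smallest endothelial excess of the core in the library labelled WT, and Psmb10 the largest endothelial excess among the 44 genes of at least 5 CPM. Psmb6, another catalytic gene, is shown beside them because it was the other core gene with the letters marked here. The windows run from 250 bases before to 50 bases after the RefSeq start in GRCm38.p6, and are written 5′ to 3′ on the strand of the gene. Psmb5 lies on the minus strand (chr14:54617946-54618245), Psmb6 on the plus strand (chr11:70525107-70525406) and Psmb10 on the minus strand (chr8:105938343-105938642). Capitals mark the letters TGACNNNGC, the core of the antioxidant response element that NFE2-related factors are known to bind.
Psmb5: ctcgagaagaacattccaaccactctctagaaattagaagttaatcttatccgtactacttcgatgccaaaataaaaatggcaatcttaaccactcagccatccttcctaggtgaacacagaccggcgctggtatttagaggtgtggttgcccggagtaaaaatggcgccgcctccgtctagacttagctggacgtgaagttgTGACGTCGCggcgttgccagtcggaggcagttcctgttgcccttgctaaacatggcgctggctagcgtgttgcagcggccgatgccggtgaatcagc
Psmb6: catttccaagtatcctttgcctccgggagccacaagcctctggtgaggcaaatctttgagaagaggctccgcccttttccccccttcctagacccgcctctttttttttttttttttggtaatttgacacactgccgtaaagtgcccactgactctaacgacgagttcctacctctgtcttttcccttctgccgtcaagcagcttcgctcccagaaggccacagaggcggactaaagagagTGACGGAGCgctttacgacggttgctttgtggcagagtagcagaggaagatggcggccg
Psmb10: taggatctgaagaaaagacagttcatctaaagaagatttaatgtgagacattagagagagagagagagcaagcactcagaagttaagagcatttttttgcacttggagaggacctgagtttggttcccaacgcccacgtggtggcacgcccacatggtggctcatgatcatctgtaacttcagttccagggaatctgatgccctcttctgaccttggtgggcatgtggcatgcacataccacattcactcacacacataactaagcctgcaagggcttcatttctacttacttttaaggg
Windows were found for 40 of the 48 genes. TGACNNNGC, searched on both strands, stood in those of 6 of the 40 (15%), namely Psmb5, Psmb6, Psmc6, Psmd12, Psmd9 and Psme4, against 14% of all 27025 genes with a window. CCAAT stood in 14 of the 40 (35%), against 41.1%. None of these letters was in the windows of Psmb10, Psme1 or Psme2. A match of letters is a description and not a binding site.

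In AT2 cells the core genes were the most abundant group. The count per molecule does not depend on transcript length in this assay. Other differences between genes in how well transcripts are captured and assigned were not assessed, so levels of different genes are compared as counts only. Core genes averaged 88.2 CPM per gene in the library labelled WT and 98.1 CPM in the library labelled IPKO, regulatory genes 45.6 and 48.2 CPM, core assembly chaperones 13 and 16.3 CPM, and base assembly chaperones 15.3 and 19.2 CPM. Each AT2 cell held a mean of 38.2 and 38.5 UMIs from the 31 core and regulatory genes. The core genes ranged from Psma5 at 39.5 and 48.1 CPM to Psmb1 at 133 and 155 CPM. Every AT2 cell was also thinned to 1500 UMIs (7 and 1 shallower cells left out). The summed count of the 31 genes then had a variance of 1.09 times its mean in both libraries, where pure counting gives 1. Thinning left few UMIs of these genes per cell, which brings the ratio close to 1 even where cells differ. The ratio therefore does not show how much AT2 cells differed in these genes.

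Among the alpha subunits, Psma2, Psma3 and Psma7 were the high genes, at 116, 113 and 113 CPM in AT2 cells labelled WT and 135, 124 and 125 CPM in those labelled IPKO. Psma1, Psma4 and Psma6 stood at 49.4, 69.3 and 61.2 CPM and at 55.3, 76.3 and 65.2 CPM. All 7 were higher in the library labelled IPKO. Among the beta subunits, the caspase-like Psmb6 stood at 107 and 118 CPM, the chymotrypsin-like Psmb5 at 93.2 and 102 CPM, and the trypsin-like Psmb7 at 56.1 and 63.3 CPM. The structural genes Psmb3 and Psmb4 were at 111 and 116 CPM and at 116 and 126 CPM, and Psmb2 was at 56.7 and 63.9 CPM.

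The 6 ATPases, which form the ring that unfolds substrates, ran from Psmc1 at 26.0 and 27.5 CPM to Psmc3 at 55.6 and 56.3 CPM. Psmd8, a lid subunit, was the highest regulatory gene at 96.3 and 100 CPM. Psmd14, the deubiquitinase of the lid that cuts off the ubiquitin chain, was the lowest at 22.9 and 22.9 CPM. The ubiquitin receptor Psmd4 stood at 59.7 and 60.9 CPM, and the large base subunits Psmd1 and Psmd2 at 48.4 and 43.9 CPM and at 45.8 and 47.0 CPM.

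Of the inducible genes, Psme1 was the highest of all 48 genes in AT2 cells, at 180 CPM in both libraries. Its ring partner Psme2 stood at 59.6 and 67.3 CPM, and Psmb10 at 19.0 and 21.7 CPM, below its constitutive counterpart Psmb7. Psme2 shares its 3′ end with the retrogene copy Psme2b: the last 200 bases of its transcript showed 0 differences from the copy and the whole transcript 44 in 795 bases. How reads were divided between them is uncertain, so the level of Psme2 is uncertain too, and Psme2b itself was at 0.617 and 0.527 CPM. Psme3, the nuclear activator, stood at 13.9 and 15.9 CPM, Psme4, the activator linked to histone breakdown, at 39.2 and 42.3 CPM, and the inhibitor Psmf1 at 12.1 and 12.6 CPM.

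Under the limit of 5 CPM (mean of both libraries) used for the counts that follow were 4 genes. The testis core gene Psma8 had 0 UMIs in both libraries. The thymus core gene Psmb11 was at 0.0172 and 0.0160 CPM, and Psmc3ip, a recombination factor that binds PSMC3, at 2.26 and 2.8 CPM. Psme2b was the fourth.

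**Figure D1:**
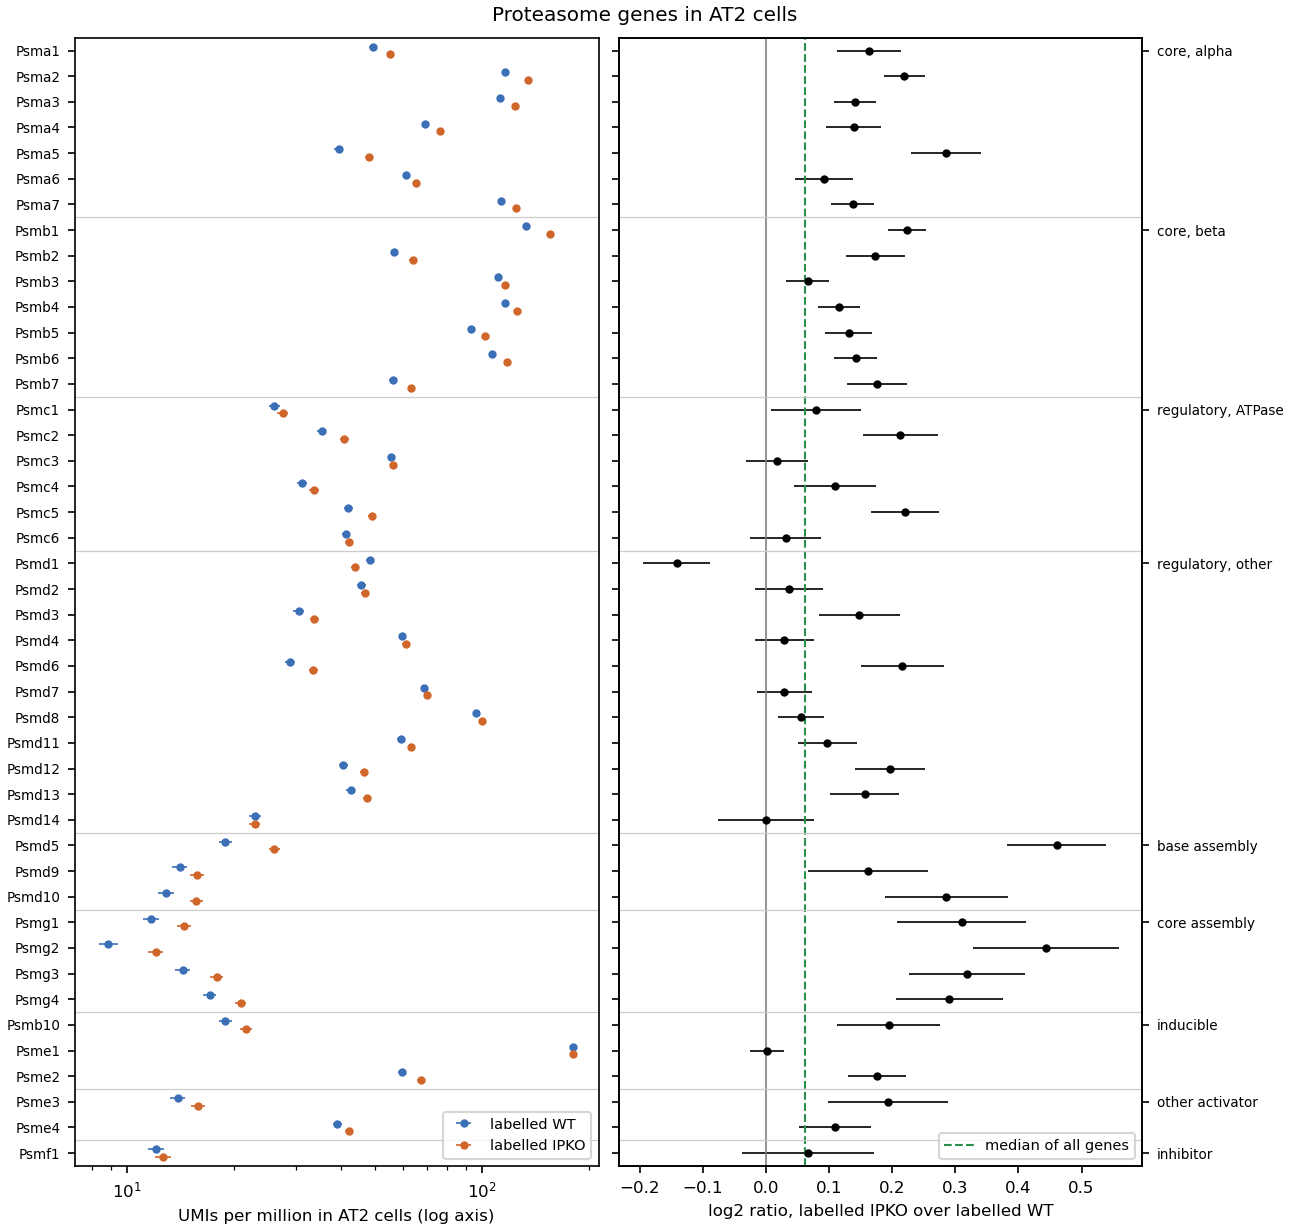
Levels (left, CPM on a log axis) and log2 ratios, IPKO label over WT label, (right) for the 44 measured proteasome genes in AT2 cells, by role. Bars are 95% counting intervals and the dashed line is the median over all genes (0.06). Core genes sit to the right of that line in all 14 cases, Psmd5 and Psmg2 lie farthest right and Psmd1 farthest left.

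Between the libraries, proteasome genes in AT2 cells differed little and mostly in one direction. The core sum was 1234 CPM under the WT label and 1373 CPM under the IPKO label, which is a log2 ratio (IPKO over WT) of 0.15 (0.14 to 0.16). The regulatory sum was 775 and 819 CPM, a ratio of 0.08 (0.07 to 0.09), and the inducible sum 259 and 269 CPM, a ratio of 0.06 (0.04 to 0.08). Assembly chaperones stood farther apart. The core assembly chaperones were at 52.0 and 65.4 CPM, a log2 ratio of 0.33 (0.28 to 0.38), and the base assembly chaperones at 45.9 and 57.5 CPM, a ratio of 0.33 (0.27 to 0.38).

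Past a difference of 25% were 2 of the 44 measured genes, both higher in the library labelled IPKO, while 8.69% of all 8493 genes of at least 5 CPM were higher by as much. They were Psmd5, a chaperone of the base, at 18.9 and 26.0 CPM, and Psmg2, a chaperone of the alpha ring, at 8.86 and 12 CPM. Their log2 ratios were 0.46 (0.38 to 0.54) and 0.44 (0.33 to 0.56). None of the 44 was lower by the same fold, against 4.86% of all genes. The median log2 ratio was 0.14 over the 44 genes and 0.06 over all genes. Above 0 were 42 of the 44, where 5421 of all 8493 genes were above 0. Of the 42, 6 (Psmc3, Psmc6, Psmd2, Psmd4, Psmd7 and Psme1) were below 0 under both other scalings tried. Above the median of all genes were 35 of the 44, among them all 14 core genes and 9 of the 17 regulatory genes.

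Psmg1, the partner of Psmg2, was at 11.7 and 14.5 CPM (log2 0.31, 0.21 to 0.41). Psmg3 and Psmg4, the other chaperone pair, were at 14.4 and 17.9 CPM and at 17.1 and 20.9 CPM, with ratios of 0.32 and 0.29. Psmd10, known as gankyrin, was at 12.9 and 15.7 CPM (0.29), and Psmd9 at 14.1 and 15.8 CPM (0.16). All 7 chaperones thus stood higher in the library labelled IPKO than in the library labelled WT. Within the particles the largest ratios were those of Psma5 (0.28, 0.23 to 0.34), Psmb1 (0.22, 0.19 to 0.25) and Psmc5 (0.22, 0.17 to 0.27). Psmd1 had the lowest, at -0.14 (-0.20 to -0.09). Of the inducible genes, Psmb10 had a ratio of 0.19 (0.11 to 0.28), Psme2 of 0.18 (0.13 to 0.22) and Psme1 of 0.00 (-0.03 to 0.03).

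The share of mitochondrial UMIs also differed between the libraries, with medians of 5.27% and 3.91% in AT2 cells. Scaled to UMIs that are neither mitochondrial nor of the AT2 markers, the core ratio was 0.11 and the regulatory ratio 0.03. The inducible ratio was 0.01 (-0.01 to 0.04), so for the inducible genes the interval then included 0. The part of mitochondrial share in the difference was not tested further.

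The other genes of the pathway give a frame for these ratios. Of the subunits named otherwise, Adrm1, a ubiquitin receptor, had a log2 ratio of 0.14 and Shfm1, a small lid subunit, of 0.16. Of 20 measured partner genes (assembly, substrate delivery and transcription of proteasome genes), 1 was higher by at least 25% and 1 lower by the same fold, with a median of 0.06. Txnl1, a thioredoxin bound to the proteasome, stood at 47.3 and 59.9 CPM (0.34), and the VCP cofactor Nsfl1c at 23.1 and 27.6 CPM (0.25). Vcp, the unfoldase that hands over substrates, stood at 179 and 120 CPM (-0.58, -0.61 to -0.55), and Ddi2, the protease that activates NFE2L1, at 43.0 and 34.4 CPM (-0.32).

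Of 15 measured ubiquitin genes, 2 were higher by at least 25% and 0 lower by the same fold, with a median of 0.04. The ligase Ubr4 and the activating enzyme Uba1 had the lowest ratios among them, -0.31 and -0.14. Of 9 genes of the class I peptide route, 5 were higher by at least 25% and 2 lower, where all genes gave 8.69% and 4.86%. B2m and Tap1, a light chain and a peptide transporter, had ratios of 0.70 and 0.60, and the chaperones Calr and Pdia3 had -0.88 and -0.43. Of 6 interferon response genes 5 were higher by as much, with Ifitm3 at 1.82 and Ifi27 at 1.01, and with Irf1 the lowest at -0.09. All 10 heat shock genes had a ratio above 0 and 7 were higher by 25%, with Hspa1a at 2.79 and Hspa1b at 2.69, and with Hsp90aa1 at 0.27 and Hspd1 at 0.15. The class I, interferon and heat shock lists thus had medians of 0.42, 0.59 and 0.57, against 0.14 for the proteasome genes.

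Across AT2 cells of one library, the proteasome sums also varied with other properties of the cells, here compared between the highest and lowest quartile of each. The core sum in the quartile with the highest mitochondrial share was 0.873 times that in the lowest (labelled WT) and 0.869 times (labelled IPKO), and for Psmb10 the values were 0.755 and 0.852. With Sftpc share the core sum was higher, 1.20 and 1.24 times, while the regulatory sum was 0.955 and 1.00 times, so core and regulatory genes differed on this axis in both libraries. With the interferon list the inducible sum was 1.14 and 1.18 times higher and the core sum 1.11 and 1.10 times. With the heat shock list the core sum was 1.04 times higher in both, and the inducible sum 1.04 and 1.03 times. The regulatory sum was 1.08 and 1.10 times higher there, and the core assembly chaperones 1.11 and 1.10 times. With total UMIs the core sum was 1.12 and 1.09 times higher. These quartiles share cells and depth, and are given without a test. No values over all genes are set beside them, so shifts shared with other genes cannot be told apart from those of proteasome genes.

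**Figure D2:**
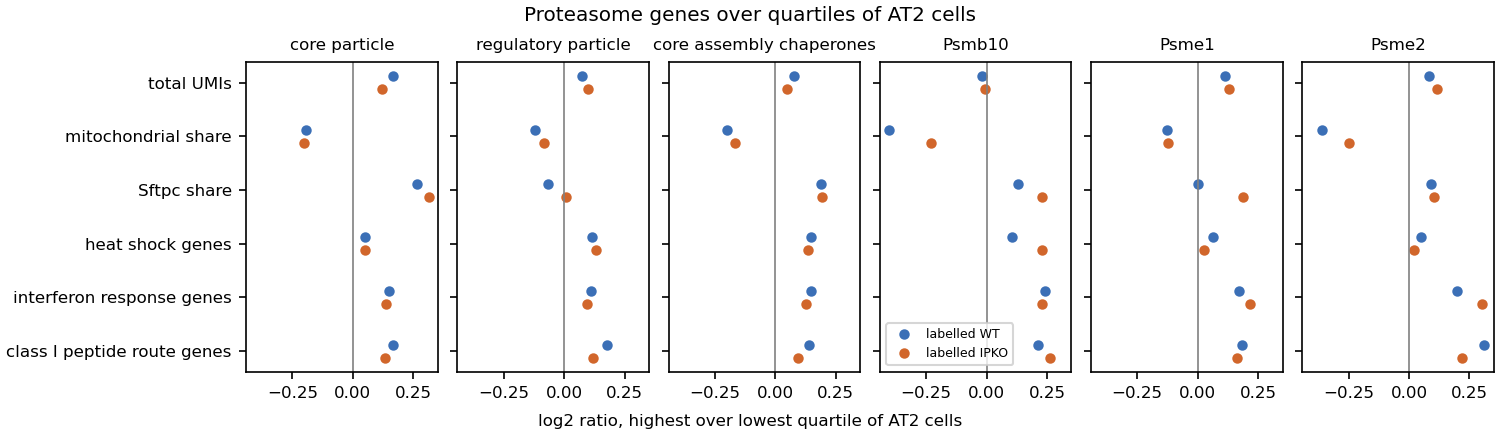
Log2 ratio of the summed level in the highest over the lowest quartile of AT2 cells, for 6 measures of the cell (rows) and 6 genes or gene groups (panels), by library. Core genes were lower with mitochondrial share and higher with Sftpc share in both libraries, while regulatory genes lay near 0 on the latter.

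Keratin-high cells held more proteasome transcripts than AT2 cells of the same library. Over all keratin-high cells, the core and regulatory sum was 2826 CPM against 2010 CPM labelled WT (log2 0.49, 0.47 to 0.51) and 2879 against 2193 CPM labelled IPKO (0.39, 0.37 to 0.41). With the cells of low Sftpc left out, among which airway cells are found, the sums were 2708 and 2664 CPM, with log2 ratios of 0.43 (0.41 to 0.45) and 0.28 (0.26 to 0.30). The median of all genes in the latter comparison was 0.11 and 0.08. All 14 core and all 17 regulatory genes stood above that median in both libraries. In the same cells, markers of alveolar type 1 cells stood at 3352 against 2399 CPM in AT2 cells (labelled WT) and 3540 against 2577 CPM (labelled IPKO), and heat shock genes at 2684 against 1939 CPM and 4472 against 3279 CPM. Their part in the difference was not tested.

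By count, 23 of 37 genes of at least 20 CPM were higher by 25% or more in both libraries over all keratin-high cells, against 18.3% of all genes, and 0 were lower by that fold, against 5.79%. With Sftpc of at least 10% the count was 11 of 37, against 13% of all genes, and 0 were lower, against 5.41%. These 11 held 2 of the 14 core genes (Psma5 and Psma7), 7 of the 17 regulatory genes (Psmc4, Psmc5, Psmc6, Psmd4, Psmd8, Psmd11 and Psmd14), Psmb10 and Psme2. At 1.5-fold, 2 of 37 were higher over all keratin-high cells (Psma5 and Psmc4), where all genes gave 5.96% higher and 2.11% lower. Of cells with Sftpc of at least 10%, 0 of 37 were, where all genes gave 4.26% higher and 1.79% lower. No gene was lower at 1.5-fold in either.

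Psmd8 stood out in the library labelled WT. It was at 195 CPM in keratin-high cells with Sftpc of at least 10% and at 96.3 CPM in AT2 cells (log2 1.02, 0.92 to 1.11), whereas the library labelled IPKO had 142 and 100 CPM (0.51, 0.41 to 0.61). Psmc4, an ATPase, stood at 50.7 against 31.2 CPM (0.70) and at 47.8 against 33.6 CPM (0.51). Psma5 stood at 56.1 against 39.5 CPM (0.51) and at 69.0 against 48.1 CPM (0.52). Assembly chaperones did not go along evenly: the base chaperones had ratios of 0.13 (-0.06 to 0.31) and 0.07 (-0.09 to 0.22), intervals that include 0. The inducible sum had 0.55 (0.48 to 0.61) and 0.24 (0.17 to 0.30).

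**Figure D3:**
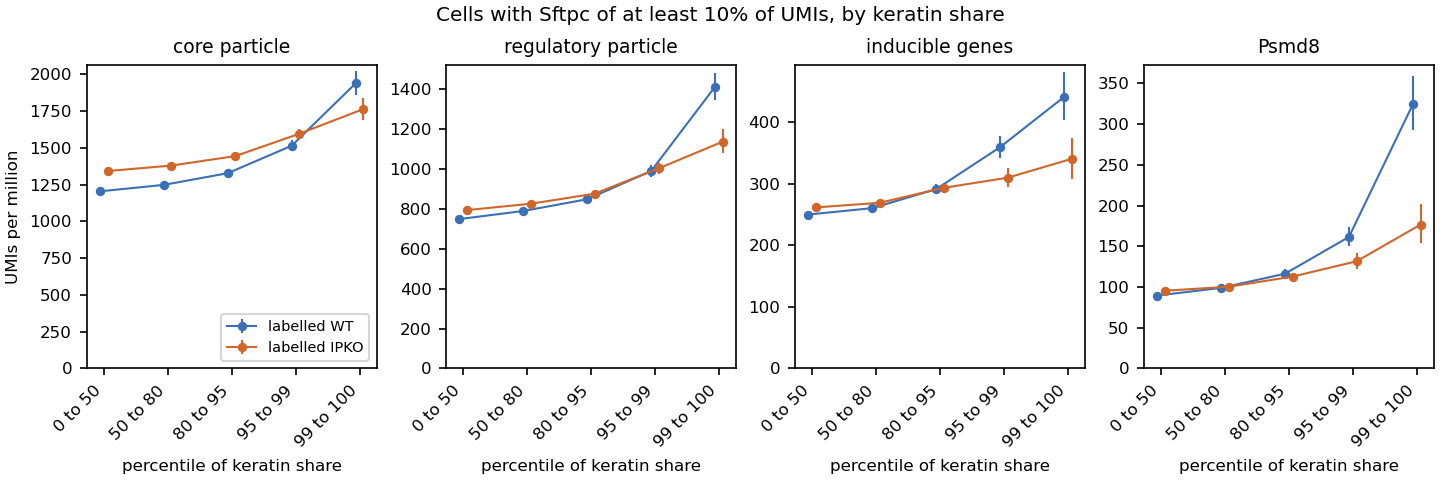
Summed level (CPM, axis from 0) of the core, regulatory and inducible genes and of Psmd8 in cells with Sftpc of at least 10%, in 5 ranges of keratin share set over both libraries together. Bars are 95% counting intervals. Levels are higher in each successive range in both libraries, and Psmd8 reaches 324 CPM in the library labelled WT and 177 CPM in the library labelled IPKO.

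The difference was graded along keratin share. In cells with Sftpc of at least 10%, the core sum labelled WT was 1204 CPM in the 50% with the lowest share and 1248, 1328, 1515 and 1939 CPM in percentiles 50 to 80, 80 to 95, 95 to 99 and 99 to 100. Labelled IPKO it was 1342, 1380, 1445, 1596 and 1764 CPM. The regulatory sum went from 749 to 1414 CPM and from 794 to 1138 CPM over the same ranges. Psmd8 was at 89.5, 98.8, 116, 161 and 324 CPM labelled WT, and at 95.4, 100, 113, 132 and 177 CPM labelled IPKO. No sum was lower in a range than in the range below it.

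Other properties of these cells varied along the same ranges. Sftpc made up 21.3% and 21.0% of UMIs in the lowest range and 18.5% and 19.2% in the highest, and median UMIs were 18719 and 17167 against 17760 and 16310. Ciliated markers were higher in each successive range in both libraries, from 259 to 552 CPM and from 314 to 681 CPM. Club markers went from 4382 to 2697 CPM labelled WT but from 2929 to 8164 CPM labelled IPKO. Their part in the result was not tested. The highest range held 64 and 75 cells.

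Between the highest 1% and the lowest 50%, 9 of 37 genes were higher by 1.5-fold in both libraries, against 11.6% of all 4519 genes, and 0 were lower, against 6.53%. They were Psma5, Psmb5, Psmc5, Psmd6, Psmd8, Psmd11, Psmd14, Psmb10 and Psme2. The log2 ratio of the regulatory sum was 0.92 (0.84 to 0.99) labelled WT and 0.52 (0.44 to 0.60) labelled IPKO, and that of the core sum 0.69 (0.63 to 0.75) and 0.39 (0.33 to 0.46). The ratio of Psmd8 was 1.86 (1.70 to 2.01) and 0.89 (0.69 to 1.09), which placed it 92nd and 307th of 4519 genes. Psme2 had 1.31 and 0.76, Psmb10 0.95 and 0.64, and Psmb5 1.09 and 0.60. The median of all genes was 0.15 and 0.10.

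Keratin-high cells with Sftpc of at least 10% did not show the AT2 difference between libraries in the core, regulatory and inducible sums. Their core sum was 1626 and 1629 CPM (WT and IPKO labels), for a ratio of 0.00 (-0.04 to 0.04). The regulatory sum was 1082 and 1035 CPM (-0.06, -0.12 to -0.01), and the inducible sum 378 and 317 CPM (-0.25, -0.34 to -0.16). The difference of these ratios from those in AT2 cells was not tested.

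**Figure D4:**
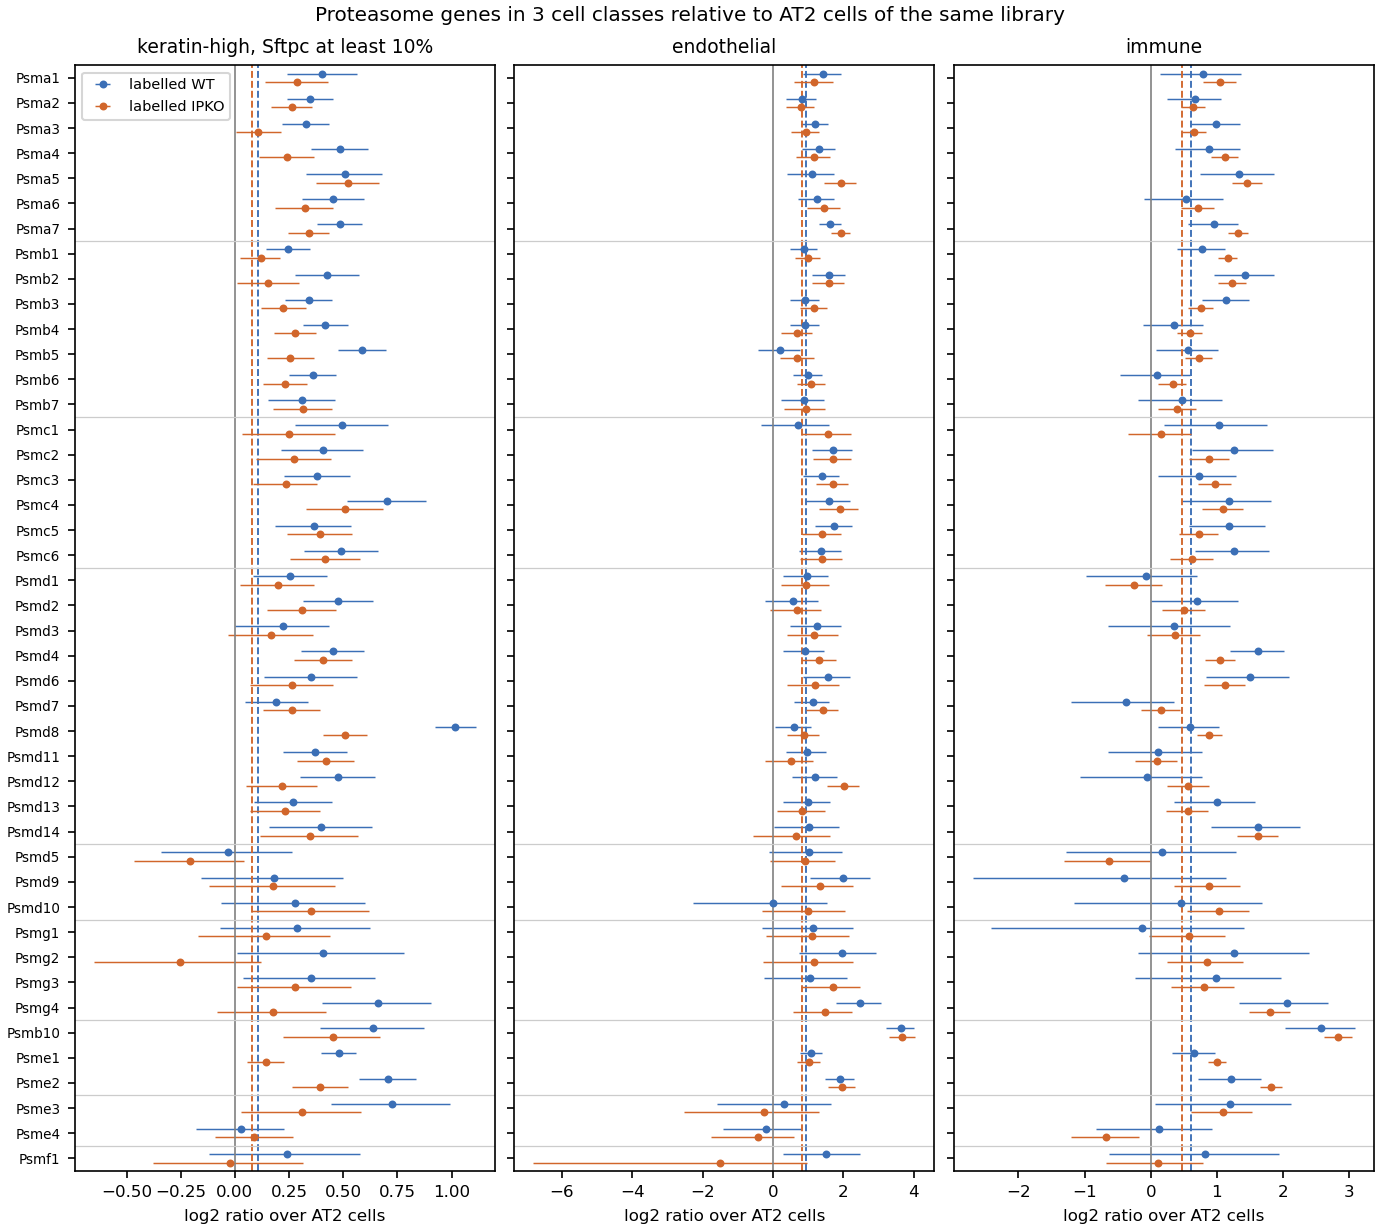
Log2 ratio of each of the 44 measured proteasome genes in keratin-high cells with Sftpc of at least 10%, endothelial cells and immune cells over AT2 cells of the same library (axes differ between panels), with 95% counting intervals. Dashed lines are the medians of all genes per library. Of these, Psmb10 is the gene farthest right in the endothelial and immune panels.

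Of the 44 genes of at least 5 CPM in AT2 cells, Psmb10 had the largest ratio of endothelial over AT2 cells in both libraries. Its endothelial levels were 235 and 277 CPM, against 19.0 and 21.7 CPM in AT2 cells, log2 ratios of 3.63 (3.22 to 4.02) and 3.67 (3.29 to 4.04). Psme2 stood at 222 and 263 CPM, ratios of 1.90 (1.48 to 2.29) and 1.97 (1.57 to 2.34), and Psme1 at 380 and 366 CPM, ratios of 1.08 and 1.02. In endothelial cells Psmb10 thus exceeded Psmb7, which stood at 103 and 121 CPM, in both libraries.

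The core and regulatory sum was 4323 and 5089 CPM in endothelial cells, log2 ratios of 1.10 (1.01 to 1.19) and 1.21 (1.13 to 1.30). The median of all genes was 0.93 and 0.83, in a comparison in which AT2 cells gave 21.2% and 21.0% of their UMIs to Sftpc alone. Under median-of-ratios scaling, which centres on typical genes, these ratios were 0.12 and 0.33, while the inducible sum kept 0.71 and 0.86. By count, 37 of 41 genes were higher by 1.5-fold in both libraries, against 51.7% of all genes, and 0 were lower, against 10.6%. The count held 13 of the 14 core genes, 15 of the 17 regulatory genes and all 3 inducible genes. Psmb5 was the core gene outside it, at 107 and 165 CPM (0.20, -0.43 to 0.76, and 0.69, 0.19 to 1.16).

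Per cell the order was the reverse. Endothelial cells held a mean of 16.1 and 18.4 UMIs of the 31 core and regulatory genes, and AT2 cells 38.2 and 38.5, with medians of 3301 and 2985 UMIs in all per endothelial cell. Thinned to 1500 UMIs, endothelial cells held 6.55 and 7.02 of these UMIs and AT2 cells 2.98 and 3.2, with 7 and 14 shallower endothelial cells left out. Psme4 had wide intervals around 0, with ratios of -0.20 (-1.41 to 0.78) and -0.44 (-1.75 to 0.61).

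In CPM, the core and regulatory sum and the inducible sum of immune cells lay between those of AT2 and endothelial cells, but not under every scaling. They are a mixture, in which 11 and 62 cells had UMIs of Cd3 genes, 5 and 39 of Cd79 genes, 4 and 52 of Nkg7, and 20 and 98 of Tyrobp or Fcer1g, and the 2 libraries held different numbers of them. Psmb10 stood at 113 and 154 CPM, ratios of 2.58 (2.03 to 3.08) and 2.83 (2.61 to 3.04). Psme2 stood at 138 and 237 CPM (1.22 and 1.82) and Psme1 at 284 and 363 CPM (0.66 and 1.01).

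The core and regulatory sum of immune cells was 3511 and 3842 CPM, with log2 ratios of 0.80 (0.71 to 0.89) and 0.81 (0.77 to 0.85), where the median of all genes was 0.61 and 0.47. Under median-of-ratios scaling they were 0.15 and 0.33, no lower than the endothelial 0.12 and 0.33, and the inducible sum labelled IPKO was at 1.01 in immune and 0.86 in endothelial cells. By count, 24 of 39 genes were higher by 1.5-fold in both libraries, against 39.8% of all genes, and 0 were lower, against 16.7%. Regulatory genes were uneven. Psmd14 stood at 70.9 and 70.8 CPM, against 22.9 CPM in AT2 cells, with ratios of 1.63 (0.91 to 2.26) and 1.63 (1.30 to 1.93). Psmd1 stood at 46.1 and 37.0 CPM (-0.07 and -0.25) and Psmd7, a lid subunit, at 53.2 and 78.0 CPM (-0.37 and 0.15), with intervals that include 0.

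The Psme2 copy showed a gap of its own. Psme2b stood at 42.7 and 22.3 CPM in endothelial cells and 24.8 and 8.85 CPM in immune cells, against 0.617 and 0.527 CPM in AT2 cells. With an identical 3′ end, the locus of these UMIs is uncertain, and Psme2b also overlaps 2 other genes on its strand.

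By position, the 48 genes were found on 16 chromosomes in the GENCODE vM21 annotation of GRCm38. The inducible Psmb10 lies at chr8:105935735-105938444 on the minus strand, Psme1 at chr14:55578123-55581529 on the plus strand, and Psme2 at chr14:55587441-55591113 on the minus strand. Psmd8 lies at chr7:29174188-29180701 on the minus strand. None of the 48 lay within 10 Mb of Ptgir, and Psmc4, the nearest, was 11.1 Mb away.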

How the data were processed

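The values used were raw UMI counts per gene and barcode, deposited by the authors as one matrix per library, from the 10x Genomics 3' kit v3.1. Per the file headers the software was Cell Ranger 4.0.0, and per the submitters' processing notes the build was GRCm38 (mm10). The sources used here name no annotation release. Cells were kept and classed from the deposited counts as described above, with Python 3.11.15, numpy 2.4.6, scipy 1.17.1 and pandas 2.3.3. Counts were summed per class and library, given as CPM with exact Poisson intervals, and compared as log2 ratios with exact conditional binomial intervals; a level of 0 was set against 3 counts. The code was tested on simulated counts. No doublet caller was run; an alternative dropped the cells with the most UMIs.

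The proteasome genes and the gene lists were chosen with earlier results of these data known, and the lists support nothing by themselves. All 48 genes are accounted for, those under 5 CPM by their counts. Of each pathway list the 2 highest and 2 lowest ratios among measured genes were named, except that a few of these genes and 1 promoter motif are not reported here. The 25% limit between classes, the division of keratin-high cells by Sftpc, the keratin ranges and the choice of promoter windows were set after values were seen. Psmb8 and Psmb9 were not analysed here. Alternatives changed the scaling, the cell filters, the Sftpc and keratin limits and the minimum level.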

Additional observations from a re-analysis of the deposited data

Results flagged for a closer look

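Proteasome transcripts were also found in barcodes that the filters removed and that no comparison used, above the floor of 3 counts (0.981 and 1.21 CPM). In the 2179 removed barcodes labelled WT, the core and regulatory genes came to 650 CPM (621 to 679), and in the 1942 labelled IPKO to 926 CPM (888 to 964). Mitochondrial UMIs made up 60.1% and 50.7% of the UMIs in these barcodes.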

How the results depend on the processing

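No paired analysis was possible because each group has 1 library. Sums and counts that answer a comparison numbered 15. None of the sums changed sign under any alternative run, and a count of genes cannot change sign. Of the 78 alternative values of the sums, 43 lay within the counting interval, and of the 20 alternative counts, 18 were within 1.5 times. The count of genes lower in the library labelled IPKO was 0 throughout, and that of genes higher by 25% was 4 with the AT2 limit at 20% of UMIs from Sftpc and 1 with a minimum of 20 CPM, instead of 2. Log2 ratios of the libraries in AT2 cells are given for the core, regulatory and inducible sums, in that order. They were 0.109, 0.0349 and 0.0133 on UMIs without AT2 marker and mitochondrial genes, and 0.110, 0.0358 and 0.0143 under median-of-ratios scaling. With the AT2 limit at 20% they were 0.166, 0.0945 and 0.0929. Of single genes, 37 of 47 had a ratio above 0 under either scaling. Values below are labelled WT first, then IPKO. Without AT2 marker and mitochondrial genes, the core and regulatory sum over AT2 cells was 0.42 and 0.34 in keratin-high cells. It was 0.59 and 0.75 in endothelial and 0.29 and 0.33 in immune cells. The inducible sum was 1.18 and 1.28 in endothelial and 0.53 and 1.00 in immune cells. Under median-of-ratios scaling these were 0.36 and 0.26, 0.12 and 0.33, 0.15 and 0.33, 0.71 and 0.86, and 0.40 and 1.01. Taking the highest 2% by keratin share gave 0.71 and 0.63, the highest 10% 0.36 and 0.26, and keratin-high cells with Sftpc of at least 10% 0.43 and 0.28. The scalings moved all ratios of endothelial over AT2 cells by -0.52 and -0.47 (without AT2 marker and mitochondrial genes) and by -0.99 and -0.89 (median of ratios). The cause of these differences was not tested, beyond the shift that each scaling applies to all genes alike. The alternative without barcodes found in both libraries was chosen after seeing the data and moved no ratio beyond its counting interval and neither count by 1.5 times. Depth limits single genes in endothelial and immune cells, which rest on few UMIs.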

Other observations

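Kept cells that fell in no class numbered 190 labelled WT and 310 labelled IPKO, with 10.8% and 11% mitochondrial UMIs. Their core sum was 860 CPM (812 to 911) and 793 CPM (754 to 834), their regulatory sum 657 and 667 CPM, and their inducible sum 134 and 133 CPM.

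In the keratin-high cells with Sftpc under 10%, among which airway cells are found, the core and regulatory sum was 3950 CPM labelled WT and 5249 CPM labelled IPKO. After thinning to 1500 UMIs its variance was 4.08 and 4.10 times the mean over 31 and 46 cells, against 1.30 and 1.14 in the keratin-high cells with Sftpc of at least 10%. Psmb10 stood at 38.6 and 48.2 CPM there.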
